A study of Arabidopsis thaliana with 2 samples.

Results

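Cysteine-rich receptor-like kinases (CRKs) are a plant family of membrane receptors, and 41 CRK genes of Arabidopsis thaliana were followed here among the 33557 loci of a leaf RNA-seq table. The 41 were taken by locus identifier from the family's annotated members, and all 41 had a value in both libraries. The table compared leaves of homozygous Atclb1-1 plants, which carry a T-DNA knockout of AtCLB per the labels, with leaves of wild type plants, with 1 library per genotype. Both were of the Columbia ecotype, 2 weeks old, and grown at 23 °C under a 16-h photoperiod. The labels do not state how many plants were pooled, the hour of harvest or the insertion site. AtCLB is the gene of a lipid-binding protein that responds to calcium. With 1 library per genotype there was no test between genotypes, and no p-value was computed.

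A typical CRK has an extracellular part with a pair of DUF26 domains, each built around conserved cysteines, a single membrane-spanning helix and a cytosolic serine/threonine kinase. The family is known for transcripts that are induced by salicylic acid, pathogens and reactive oxygen, and several members act in the oxidative burst, in resistance to bacteria and in cell death. Many CRK genes lie in tandem arrays, and their promoters have been described as rich in W-boxes, the sites bound by WRKY transcription factors.

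The shared signature of the DUF26 domain is a cysteine, 8 residues, a cysteine, 2 residues and a cysteine. The longest coding models of the TAIR10.1 annotation (RefSeq) held 2 copies of it in 36 of the 41 genes. ARCK1 (AT4G11890, also CRK45) had 0 copies, CRK24 and CRK27 had 1, CRK23 had 3 and CRK17 had 4, of which 2 are at the same positions as those of CRK16, with which the CRK17 model overlaps. The stretches below show the signature in members whose transcripts differed most between the libraries, beside CRK21, which was lower in Atclb1-1. Capitals mark the 3 cysteine codons, and each stretch runs 5′ to 3′ on the coding strand.

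CRK36, first copy: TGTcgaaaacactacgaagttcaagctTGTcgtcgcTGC
CRK36, second copy: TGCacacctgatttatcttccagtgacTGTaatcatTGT
CRK11, first copy: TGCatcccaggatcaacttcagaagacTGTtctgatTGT
CRK11, second copy: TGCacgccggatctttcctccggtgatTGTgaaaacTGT
CRK23, copy 1: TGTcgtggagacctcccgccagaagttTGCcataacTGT
CRK23, copy 2: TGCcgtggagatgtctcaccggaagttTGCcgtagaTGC
CRK23, copy 3: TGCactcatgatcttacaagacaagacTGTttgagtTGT
CRK24, single copy: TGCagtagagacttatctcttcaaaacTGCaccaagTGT
CRK21, first copy: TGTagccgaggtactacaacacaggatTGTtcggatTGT
CRK21, second copy: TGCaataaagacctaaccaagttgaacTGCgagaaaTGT

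In 37 of the 41 models both the catalytic-loop triplet histidine-arginine-aspartate and the metal-binding triplet aspartate-phenylalanine-glycine were found. CRK8 and CRK9 had neither, CRK22 lacked the first and ARCK1 the second. CRK9 (AT4G23170), at 265 residues, was the shortest protein of the family and ARCK1, at 354 residues, the next, against a family median of 660 residues. The CRK8 model, at 1043 residues, was the longest. Its first DUF26 signature began at chr4:12131708, well downstream of the annotated gene start at chr4:12129485.

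Of the 41 genes, 37 lay on chromosome 4, and 20 of these formed 1 array at TAIR10.1 chr4:12117491-12191704, from CRK5 (AT4G23130) to CRK24 (AT4G23320) over 74.2 kb. Array members resembled each other in sequence, with a median coding identity of 68.4% over the 190 pairs within it, against 63.1% over the 590 pairs of genes from different arrays, single genes included. The closest pair was CRK8 and CRK9, at 90.6% over the aligned bases. For 12 members at least 5% of the 50-base segments of the transcript also occurred in another gene, with the highest shares in CRK16 (33.5%, mostly with CRK17), CRK6 (26.6%, mostly with CRK8) and CRK17 (25.1%). Reads from such segments cannot be assigned to 1 gene with certainty, and the values of these 12 genes are uncertain for that reason. The 12 were CRK6, CRK8, CRK13, CRK16, CRK17, CRK18, CRK19, CRK20, CRK22, CRK25, CRK39 and CRK40. A further limit touches 10 members that overlap another annotated gene, among them CRK10 with CRK11, CRK16 with CRK17 and CRK28 with CRK29. The library kit was directional per the labels, but whether strand entered the counting is not stated there.

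The libraries were checked first. AtCLB (AT3G61050) stood at 13.5 FPKM in Atclb1-1 and 39.2 FPKM in wild type, a ratio of 0.345. FPKM is a fragment count corrected for the length of the transcript and the depth of the library. The smallest steps between low values put the depth at roughly 16700000 to 18200000 mapped fragments in Atclb1-1 and 14300000 to 15400000 in wild type. Both libraries had the character of leaf, with the 5 mesophyll markers at 1951 FPKM or more in Atclb1-1 and 1765 FPKM or more in wild type, and all 6 root markers listed at 0 in both. Differences are given as Atclb1-1 over wild type on the log2(FPKM + 1) scale, which makes differences of weakly expressed genes look smaller. The 18171 loci that reached 1 FPKM in either library were kept, and members were counted when they passed 2-fold on that scale.

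CRK transcripts were higher in the Atclb1-1 library as a family. Of all 41 members 17 passed 2-fold upwards and 0 downwards, and 36 had a value above that of wild type. The 17 made up 48.6% of the 35 kept members. The same thresholds took in 17.2% of all kept loci upwards and 10.8% downwards. A value above wild type was found for 32 of the 35 kept members, beside 60.4% of all kept loci. With no filter the share was 39.9% of all loci, those at 0 included. Of the 36, CRK30, CRK31 and CRK32 rested on roughly 1, 6 and 9 fragments in Atclb1-1. The summed level of the family was 1149 FPKM in Atclb1-1 and 575 FPKM in wild type, a ratio of 2.00, while the sum over all loci had a ratio of 0.914. The median difference was 0.89 over all 41 members and 0.98 over the 35 that were kept, beside a median of 0.21 over all kept loci. Of the 35, 5 (CRK12, CRK20, CRK26, CRK38 and CRK39) were kept only through their level in Atclb1-1 and therefore had to be higher there. Over the 30 members at 1 FPKM or more in wild type, 14 (46.7%) were at least 2-fold higher, against 13.8% of the 16952 loci selected the same way. With no filter at all the shares were 41.5% of the members and 9.31% of all loci. No replicate check of these differences was possible. Shifting the median ratio of well-expressed loci to 0, a move of 0.21, left 13 of the 17 past 2-fold, without CRK2, CRK4, CRK20 and ARCK1.

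**Figure D1:**
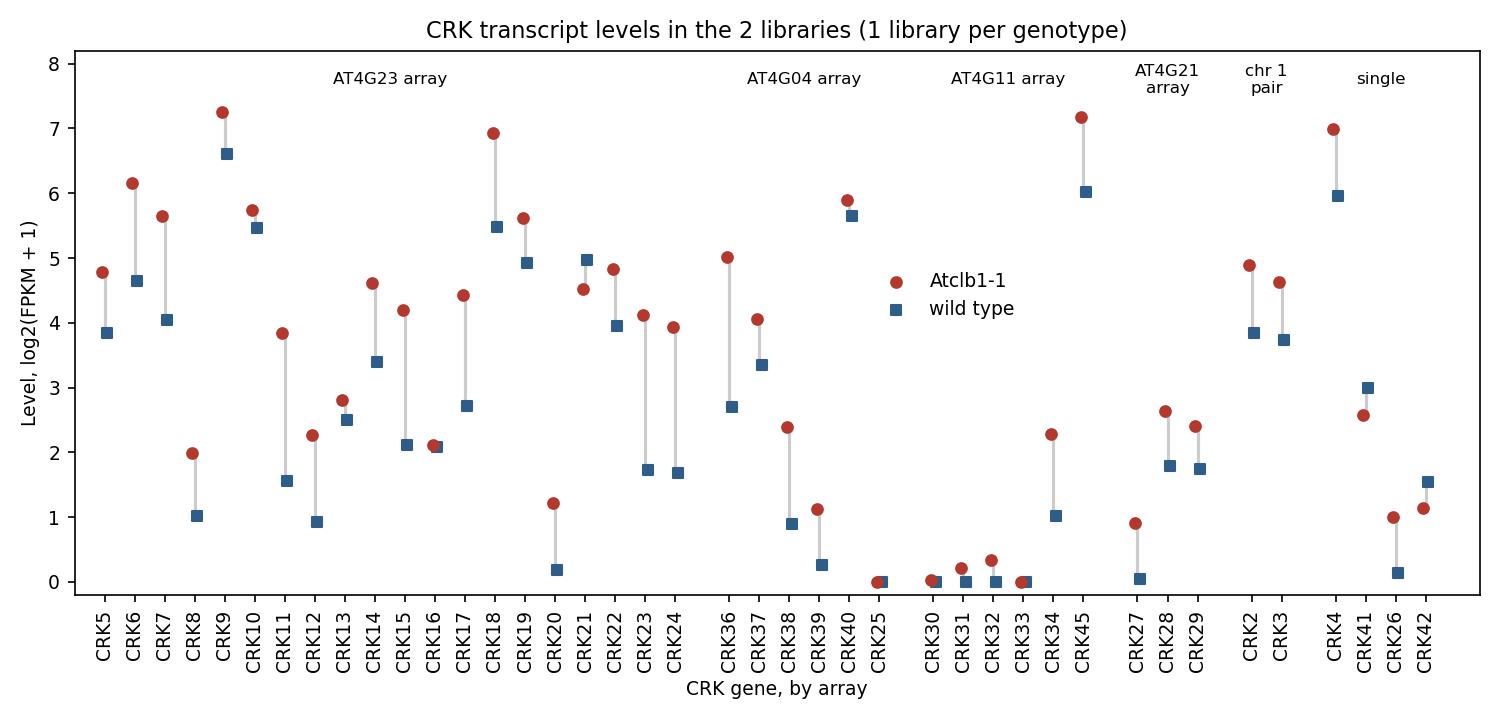
Level of each of the 41 CRK genes on the log2(FPKM + 1) scale, grouped by array, in the Atclb1-1 library (red circles) and the wild type library (blue squares); grey lines join the values of 1 gene, and no error bars are drawn because each genotype has 1 library. The circle lies above the square for 36 genes (87.8%, beside 39.9% of all loci with no filter). CRK21, CRK41 and CRK42 are the 3 with the circle below.

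**Figure D2:**
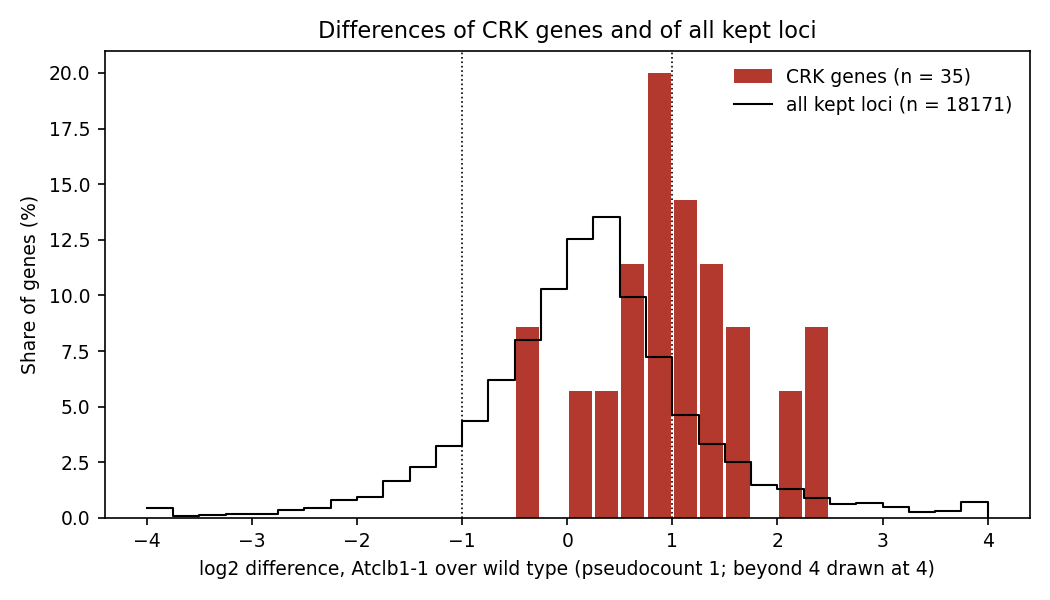
Share of genes in each interval of the log2 difference for the 35 kept CRK genes (red bars) and for all 18171 kept loci (black line), with dotted lines at the 2-fold threshold. The CRK genes run from -0.44 to 2.39, and none lies left of the lower dotted line.

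The first group comprises members tied to the oxidative burst and to the early immune receptor complex. CRK2 (AT1G70520), which phosphorylates the NADPH oxidase RBOHD, was at 28.7 FPKM in Atclb1-1 and 13.3 FPKM in wild type, a difference of 1.06. CRK36 (AT4G04490; TAIR10.1 chr4:2231717-2234689, minus strand), known to act with the cytosolic kinase BIK1, was at 31.5 FPKM in Atclb1-1 and 5.48 FPKM in wild type. Its difference of 2.33 was the second highest of the family. ARCK1 (AT4G11890), a receptor-like cytosolic kinase induced by abscisic acid and osmotic stress that forms a complex with CRK36, was among the most abundant members, at 144 FPKM in Atclb1-1 and 64.0 FPKM in wild type. CRK28 (AT4G21400), which associates with the co-receptor BAK1, was at 5.21 FPKM in Atclb1-1 and 2.47 FPKM in wild type. CRK29 (AT4G21410), its neighbour and close relative, was at 4.32 FPKM in Atclb1-1 and 2.36 FPKM in wild type. CRK36, ARCK1 and CRK2 thus passed the 2-fold threshold, and CRK28 and CRK29, with differences of 0.84 and 0.66, did not. ARCK1 overlaps AT4G11900, at 24.3 FPKM in Atclb1-1 and 10.3 FPKM in wild type, so the value of ARCK1 is uncertain.

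A second group is known for leaf cell death when expression is forced. CRK4 (AT3G45860), the sole member on chromosome 3, was at 127 FPKM in Atclb1-1 and 61.0 FPKM in wild type. CRK5 (AT4G23130) was at 26.5 FPKM in Atclb1-1 and 13.3 FPKM in wild type. These sat on either side of the threshold, with differences of 1.04 for CRK4 and 0.95 for CRK5. CRK19 (AT4G23270) was at 48.2 FPKM in Atclb1-1 and 29.3 FPKM in wild type, a difference of 0.70. CRK20 (AT4G23280), adjacent to CRK19 and 90.0% identical to it over the aligned coding bases, was far less abundant, at 1.32 FPKM in Atclb1-1 and 0.131 FPKM in wild type. That is roughly 49 fragments in Atclb1-1 and 4 in wild type, so the CRK20 ratio rests on few reads.

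Members linked to reactive oxygen and salicylic acid spanned most of the family's range. CRK6 (AT4G23140) and CRK7 (AT4G23150), a pair described as protecting against extracellular reactive oxygen, were both higher. CRK6 was at 70.5 FPKM in Atclb1-1 and 24.0 FPKM in wild type, and CRK7 at 49.3 FPKM in Atclb1-1 and 15.4 FPKM in wild type. CRK11 (AT4G23190, also RLK3; TAIR10.1 chr4:12140899-12143858, minus strand), a gene known to be induced by oxidative stress and salicylic acid, was at 13.4 FPKM in Atclb1-1 and 1.94 FPKM in wild type, a difference of 2.29. Its tail-to-tail neighbour CRK10 (AT4G23180, also RLK4) was nearly level at 52.5 FPKM in Atclb1-1 and 43.0 FPKM in wild type. CRK13 (AT4G23210), whose overexpression is known to raise salicylic acid and resistance to bacteria, was close too, at 5.97 FPKM in Atclb1-1 and 4.63 FPKM in wild type. The differences of CRK10 and CRK13 were 0.28 and 0.31, near the median of 0.21 over all kept loci.

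The other 12 genes of the large array, whose individual roles are less well described, included 3 of the 5 largest differences. CRK23 (AT4G23310; TAIR10.1 chr4:12185369-12188961, plus strand) had the highest difference of the family, 2.39, at 16.4 FPKM in Atclb1-1 and 2.31 FPKM in wild type. Next to it, CRK24 (AT4G23320) was at 14.2 FPKM in Atclb1-1 and 2.21 FPKM in wild type, a difference of 2.25. CRK15 (AT4G23230) was at 17.4 FPKM in Atclb1-1 and 3.33 FPKM in wild type, a difference of 2.09. With CRK36 and CRK11 these were the 5 members at least 4-fold higher, and all 5 lay between 1.94 and 5.48 FPKM in wild type. CRK17 (AT4G23250) was at 20.5 FPKM in Atclb1-1 and 5.54 FPKM in wild type. CRK18 (AT4G23260) was at 121 FPKM in Atclb1-1 and 43.7 FPKM in wild type. CRK14 (AT4G23220) was at 23.5 FPKM in Atclb1-1 and 9.48 FPKM in wild type. All 3 passed the threshold, with differences of 1.72, 1.45 and 1.23, as did CRK12 (AT4G23200) with 1.34, at 3.80 FPKM in Atclb1-1 and 0.895 FPKM in wild type.

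The remaining 5 genes of that array stayed below 2-fold. CRK9 (AT4G23170), the short member without a kinase triplet, was the most abundant CRK in both libraries, at 152 FPKM in Atclb1-1 and 96.8 FPKM in wild type. CRK8 (AT4G23160) was at 2.98 FPKM in Atclb1-1 and 1.02 FPKM in wild type, and its difference of 0.98 lay just under the threshold. CRK22 (AT4G23300) was at 27.6 FPKM in Atclb1-1 and 14.4 FPKM in wild type. CRK16 (AT4G23240) was level, at 3.33 FPKM in Atclb1-1 and 3.24 FPKM in wild type, although it overlaps CRK17 and shares segments with it. CRK21 (AT4G23290) was lower, at 21.9 FPKM in Atclb1-1 and 30.2 FPKM in wild type, a difference of -0.44.

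Along the array, large and small differences stood side by side. In the array, 11 of 20 members were at least 2-fold higher, and its median difference was 1.13. Outside it 6 of 21 members were, or 6 of the 15 that were kept, with a median of 0.87 over these 15. All 20 array members were kept. At least 2-fold higher were 17.2% of all kept loci and 9.31% of all loci with no filter. CRK12 and CRK20 among the 11, and CRK38 among the 6, were kept only through Atclb1-1 and so had to be higher. The adjacent genes CRK10 and CRK11 had differences of 0.28 and 2.29, and CRK16 lay between CRK15 and CRK17 with 0.03. Neighbouring loci that are not members, inside an array or within 3 genes of an array or single gene, numbered 220, of which 110 were kept. The AT4G04 stretch ran on from CRK40, ending at chr4:2292965, to CRK25, starting at chr4:2679723. The AT4G11 stretch ran on from CRK34, ending at chr4:6989793, to ARCK1, starting at chr4:7147865. Many of the 220 lay in these gaps and so far from any CRK gene. Past 2-fold were 20 of the 110 (18.2%) upwards and 10 (9.09%) downwards, and the median was 0.19, close to the shares and the median over all kept loci. The large array had 3 kept neighbours, namely AT4G23215, an annotated CRK pseudogene inside it, at 68.4 FPKM in Atclb1-1 and 7.69 FPKM in wild type, GSH1 (AT4G23100), a glutathione synthesis gene, at 106 FPKM in Atclb1-1 and 132 FPKM in wild type, and AT4G23330 at 13.5 FPKM in Atclb1-1 and 13.9 FPKM in wild type.

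**Figure D3:**
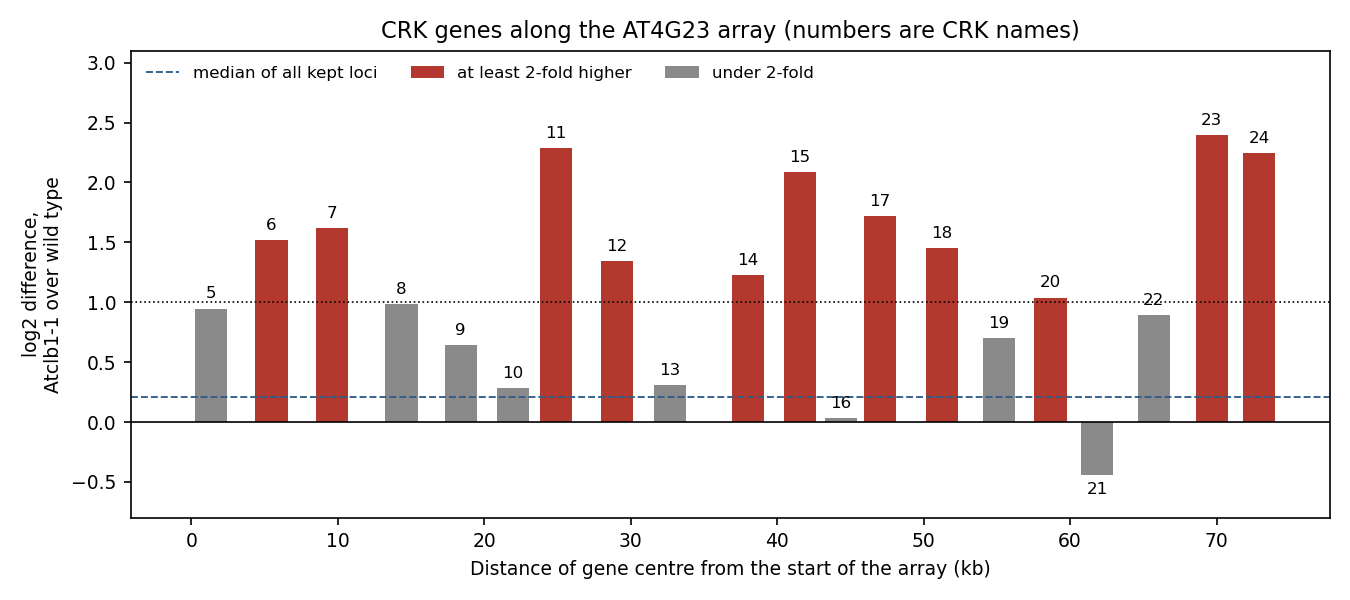
log2 difference of each of the 20 CRK genes of the large array, Atclb1-1 over wild type, against the distance of the gene's centre from the start of the array in kb; numbers are CRK names, red bars pass the 2-fold threshold (dotted line) and grey bars do not. Bars of 2 or more belong to CRK11, CRK15, CRK23 and CRK24, and CRK10 and CRK16, each next to one of them, lie near or below the dashed line at the median of all kept loci.

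Members outside the large array differed in level over a wide range. In the AT4G04 group, CRK40 (AT4G04570) was abundant and nearly level, at 58.4 FPKM in Atclb1-1 and 48.9 FPKM in wild type, while CRK37 (AT4G04500) was at 15.6 FPKM in Atclb1-1 and 9.24 FPKM in wild type. CRK38 (AT4G04510) was at 4.22 FPKM in Atclb1-1 and 0.862 FPKM in wild type, a difference of 1.49. CRK39 (AT4G04540), 87.1% identical to CRK40 over the aligned coding bases, was at 1.18 FPKM in Atclb1-1 and 0.195 FPKM in wild type. So the same small group held 1 gene among the most abundant of the family and 1 near the limit of measurement. CRK3 (AT1G70530), the partner of CRK2 on chromosome 1, was at 23.9 FPKM in Atclb1-1 and 12.3 FPKM in wild type, a difference of 0.91. CRK34 (AT4G11530) was at 3.89 FPKM in Atclb1-1 and 1.02 FPKM in wild type, a difference of 1.27.

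The 3 members below their wild type value were CRK21, given above, and a pair of single genes. CRK41 (AT4G00970) was at 4.98 FPKM in Atclb1-1 and 6.96 FPKM in wild type. CRK42 (AT5G40380), the sole member on chromosome 5, was at 1.20 FPKM in Atclb1-1 and 1.92 FPKM in wild type. Their differences, -0.41 each, did not reach 2-fold. CRK26 (AT4G38830) was at 1.00 FPKM in Atclb1-1 and 0.096 FPKM in wild type, roughly 38 and 3 fragments.

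Transcripts of 6 members stayed under 1 FPKM in both libraries and were not kept. CRK27 (AT4G21230) came closest, at 0.887 FPKM in Atclb1-1 and 0.0316 FPKM in wild type, or roughly 31 fragments in Atclb1-1 and 1 in wild type. CRK30 (AT4G11460), CRK31 (AT4G11470) and CRK32 (AT4G11480), which lie side by side, were between 0.0252 and 0.270 FPKM in Atclb1-1 and listed at 0 in wild type. CRK25 (AT4G05200) and CRK33 (AT4G11490) were listed at 0 in both.

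The order of levels within the family had CRK9, ARCK1 and CRK4 on top in both libraries. In Atclb1-1 the 4 highest were CRK9, ARCK1, CRK4 and CRK18, which made up 47.3% of the family's summed FPKM. In wild type they were CRK9, ARCK1, CRK4 and CRK40, with 47.1%. In Atclb1-1 22 members reached 10 FPKM, against 14 in wild type. Of the 14 members at 10 FPKM or more in wild type 6 were at least 2-fold higher, with differences from -0.44 to 1.62. Of the 21 kept members below that level 11 were, with differences from -0.41 to 2.39. Among the 21 were the 5 kept only through Atclb1-1, of which CRK12, CRK20 and CRK38 counted among the 11. The split used the wild type value, which also enters each difference, so these counts do not relate level to difference. Over all kept loci, not split by level, 17.2% were at least 2-fold higher. Which neighbours in these orders differ beyond their spread could not be told with 1 library per genotype.

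Because CRK promoters are known for W-boxes, the 250 bases upstream of each annotated gene start were searched on both strands for the W-box core TTGAC. Of the 41 members 30 (73.2%) held at least 1 copy, against 12328 of 27438 windows of protein-coding genes (44.9%). Windows with 3 or more copies made up 7 of 41 members (17.1%) and 3.38% of all windows. CRK11 had the most copies of any member, 6, of which 5 lay within 36 to 69 bases of the annotated start, counted to the first base of the copy. The windows of CRK11, CRK36 and CRK23, 3 members at least 4-fold higher, are shown beside that of CRK21, which was lower and held no copy. CRK41 and CRK42, also lower, held 4 copies and 1 copy. Capitals mark each TTGAC or its reverse complement, and sequences run 5′ to 3′ towards the gene, all from the TAIR10.1 genome.

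CRK11, chr4:12143859-12144108, minus strand: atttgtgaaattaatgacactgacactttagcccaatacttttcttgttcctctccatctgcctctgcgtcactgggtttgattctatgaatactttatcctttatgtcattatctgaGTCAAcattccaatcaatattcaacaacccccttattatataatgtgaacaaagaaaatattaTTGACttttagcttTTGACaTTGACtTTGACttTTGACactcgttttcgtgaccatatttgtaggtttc
CRK36, chr4:2234690-2234939, minus strand: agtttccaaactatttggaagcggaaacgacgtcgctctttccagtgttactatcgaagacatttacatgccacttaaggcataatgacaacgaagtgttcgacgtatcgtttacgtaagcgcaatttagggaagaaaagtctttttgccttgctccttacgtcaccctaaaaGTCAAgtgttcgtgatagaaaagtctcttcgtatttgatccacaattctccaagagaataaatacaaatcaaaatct
CRK23, chr4:12185119-12185368, plus strand: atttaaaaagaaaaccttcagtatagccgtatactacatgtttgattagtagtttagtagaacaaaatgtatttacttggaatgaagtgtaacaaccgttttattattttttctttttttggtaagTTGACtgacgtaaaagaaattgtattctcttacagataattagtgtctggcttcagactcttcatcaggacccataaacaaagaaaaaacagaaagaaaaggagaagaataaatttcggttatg
CRK21, chr4:12180937-12181186, minus strand: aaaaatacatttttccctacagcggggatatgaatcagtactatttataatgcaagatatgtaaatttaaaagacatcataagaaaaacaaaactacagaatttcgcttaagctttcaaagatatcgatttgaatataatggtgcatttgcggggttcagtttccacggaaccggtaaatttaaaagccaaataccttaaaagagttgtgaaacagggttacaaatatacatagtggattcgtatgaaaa

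Set against the differences, 14 of the 30 members with a TTGAC were at least 2-fold higher, and 3 of the 11 without one. The share of all loci with no filter was 9.31%. CRK20 and CRK38 among the 14, and CRK12 among the 3, were kept only through Atclb1-1 and so had to be higher. Medians with no filter were 0.96 for the 30 with a copy and 0.84 for the 11 without. The genes at each number of copies overlapped widely, and no test was made. CRK41, with 4 copies, and CRK42, with 1, had lower values in Atclb1-1, and CRK23 and CRK36 had a single copy each. CRK2, CRK12 and ARCK1, with 0 copies, were at least 2-fold higher. Members of 1 array share ancestry and therefore part of their upstream sequence, and 9 of the 41 windows run into another annotated gene. A match describes these letters in this window and says nothing of binding.

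**Figure D4:**
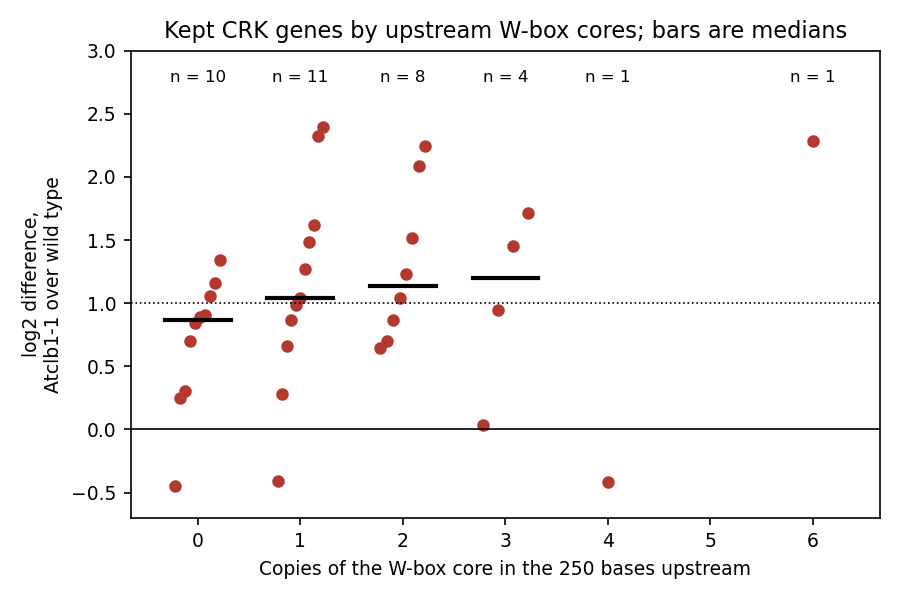
log2 difference of each of the 35 kept CRK genes, Atclb1-1 over wild type, by the number of TTGAC copies on either strand in the 250 bases upstream; points are genes, black bars are medians of these kept genes where a column has more than 1, 5 of the 35 having been kept only through Atclb1-1, and the dotted line is the 2-fold threshold. The columns overlap widely, with CRK11 alone at 6 copies and CRK41, at 4 copies, below 0.

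WRKY genes, salicylic acid genes and the known CRK partners were described from lists of their own, with all 9, 16 and 9 genes kept. Past 2-fold were 7 of the 9 WRKY genes upwards and 1 downwards, and the median was 1.46. Among all kept loci 17.2% passed upwards and 10.8% downwards, and the median was 0.21. WRKY18 and WRKY60, related regulators of defence, were at 171 and 90.0 FPKM in Atclb1-1 and at 16.5 and 9.39 FPKM in wild type, and WRKY6 at 22.1 FPKM in Atclb1-1 and 6.51 FPKM in wild type. WRKY70 was at 423 FPKM in Atclb1-1 and 146 FPKM in wild type, while WRKY29 went the other way at 0.254 FPKM in Atclb1-1 and 1.77 FPKM in wild type. WRKY29 was kept only through wild type and so had to be lower. The salicylic acid list had 8 of 16 past 2-fold upwards and 1 downwards, and a median of 0.95. Among them were FMO1, a monooxygenase of systemic resistance, PBS3, an enzyme of salicylic acid synthesis, and CBP60G, a transcription factor of the pathway. FMO1 was at 16.2 FPKM in Atclb1-1 and 0.449 FPKM in wild type, PBS3 at 85.1 FPKM in Atclb1-1 and 15.0 FPKM in wild type, and CBP60G at 85.8 FPKM in Atclb1-1 and 23.4 FPKM in wild type. FMO1, counted among the 8, was kept only through Atclb1-1 and so had to be higher. NPR3, a salicylic acid receptor gene, was at 51.5 FPKM in Atclb1-1 and 14.7 FPKM in wild type. The lower gene, PR5, a defence marker, was at 516 FPKM in Atclb1-1 and 1382 FPKM in wild type.

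The partner list had 2 of 9 past 2-fold upwards (22.2%, beside 17.2% of all kept loci), 2 downwards (22.2%, beside 10.8%) and a median of 0.66. RBOHF, an NADPH oxidase gene, was at 21.0 FPKM in Atclb1-1 and 4.44 FPKM in wild type, and BIK1 at 25.9 FPKM in Atclb1-1 and 10.5 FPKM in wild type. FLS2, the flagellin receptor gene, was lower at 1.55 FPKM in Atclb1-1 and 7.51 FPKM in wild type. PBL1, the closest relative of BIK1, was lower too, at 20.1 FPKM in Atclb1-1 and 59.3 FPKM in wild type. RBOHD, the substrate of CRK2, had a difference of 0.96, at 47.1 FPKM in Atclb1-1 and 23.8 FPKM in wild type. BAK1, at 25.2 FPKM in Atclb1-1 and 19.0 FPKM in wild type, had a difference of 0.39.

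Proteins that share the DUF26 domain but not the kinase were divided. Of 10 such genes 9 were kept. Past 2-fold were 3 upwards and 4 downwards, and the median was 0.02. The secreted proteins AT3G22060 (CRRSP38) and AT5G48540 (CRRSP55) were at 101 and 90.4 FPKM in Atclb1-1 and at 9.07 and 15.7 FPKM in wild type. PDLP5, a plasmodesmal protein linked to salicylic acid, was at 16.9 FPKM in Atclb1-1 and 3.22 FPKM in wild type. Its relative PDLP3 was lower at 1.06 FPKM in Atclb1-1 and 9.45 FPKM in wild type, as were PDLP2, PDLP6 and PDLP7. PDLP2, PDLP6 and PDLP7 were kept only through wild type and so had to be lower. The count of lower genes in this list, 4 of 9, stands beside 0 of 35 for the kept CRK genes and 10.8% of all kept loci.

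In the IOS1 and wall-associated kinase clusters, tandem clusters of other receptor kinase families, every kept gene was above its wild type value. Over all kept loci 60.4% were above wild type and 17.2% were at least 2-fold higher. Both clusters were chosen with earlier results of these data known. Of the 12 genes of the IOS1 cluster on chromosome 1 7 were kept, 6 of them past 2-fold upwards, and the median was 2.60, or 0.96 over all 12. AT1G51820 and AT1G51850 were kept only through Atclb1-1 and so had to be higher. The malectin-like receptor kinase gene AT1G51860 was at 41.7 FPKM in Atclb1-1 and 1.34 FPKM in wild type, and IOS1 itself was at 25.6 FPKM in Atclb1-1 and 2.92 FPKM in wild type. AT1G51890 and AT1G51850 had differences of 2.80 and 2.60. Of the 5 wall-associated kinase genes 3 were kept and 2 were at least 2-fold higher, among them WAK3 at 39.9 FPKM in Atclb1-1 and 6.40 FPKM in wild type. The second was WAK1, at 346 FPKM in Atclb1-1 and 142 FPKM in wild type. With 1 library per genotype the CRK family could not be tested against these clusters.

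**Figure D5:**
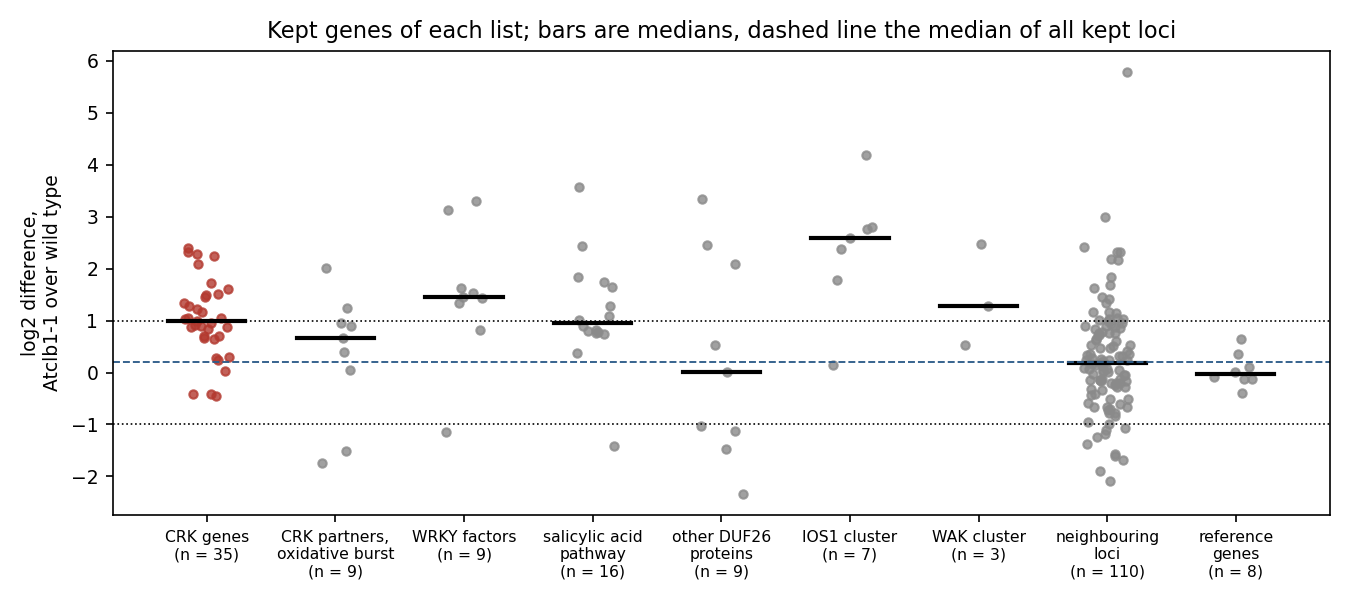
log2 difference of every kept gene, Atclb1-1 over wild type, for the CRK family (red) and for the comparison lists, the loci neighbouring arrays and single members, and 8 reference genes (grey); black bars are medians, dotted lines the 2-fold thresholds and the dashed line the median of all kept loci. The CRK median is 0.98, that of the neighbours 0.19 and that of the reference genes -0.03.

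Other features of the leaves moved with genotype, and their part in the CRK differences was not tested. Dawn clock genes were higher in 4 of 4, with summed levels of 332 FPKM in Atclb1-1 and 16.3 FPKM in wild type, and evening clock genes were at least 2-fold lower in 4 of 5, with sums of 61.0 FPKM in Atclb1-1 and 702 FPKM in wild type. Over all kept loci 17.2% were at least 2-fold higher and 10.8% lower. Senescence markers were at least 2-fold higher in 3 of 4, with sums of 1265 FPKM in Atclb1-1 and 143 FPKM in wild type. Most of these sums was SAG13, at 1124 FPKM in Atclb1-1 and 122 FPKM in wild type. SAG12 was at 45.4 FPKM in Atclb1-1 and listed at 0 in wild type. It was kept only through Atclb1-1 and so had to be higher. NAP was at 82.9 FPKM in Atclb1-1 and 8.46 FPKM in wild type. ORE1 was level at 13.1 FPKM in Atclb1-1 and 12.5 FPKM in wild type. Mesophyll markers were at least 2-fold lower in 3 of 5, beside 10.8% of all kept loci. Of the 5 kept guard cell markers 3 were lower and 1 higher, KAT1 at 32.4 FPKM in Atclb1-1 and 12.8 FPKM in wild type, with guard cell sums of 91.4 FPKM in Atclb1-1 and 198 FPKM in wild type and MUTE listed at 0 in Atclb1-1. Phloem markers had sums of 630 FPKM in Atclb1-1 and 643 FPKM in wild type. Xylem markers had sums of 22.6 FPKM in Atclb1-1 and 42.0 FPKM in wild type. Flower markers had sums of 2.19 FPKM in Atclb1-1 and 1.51 FPKM in wild type. Of these, AP3 was listed at 0 in Atclb1-1 and at 0.0677 FPKM in wild type. AG was at 0.821 FPKM in Atclb1-1 and 1.38 FPKM in wild type. PI went the other way, at 1.36 FPKM in Atclb1-1 and 0.0635 FPKM in wild type. In whole leaves, more cells of a type and more RNA per cell cannot be told apart. Genotype, harvest and library cannot be told apart with 1 library each.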

How the data were processed

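RNA-seq libraries from leaves of Atclb1-1 and wild type plants were compared, 1 per genotype, grouped by the genotype label. The deposited values are FPKM, with TopHat 1.3.2 and Cuffdiff used on the TAIR10 build per the submitters' processing notes. The labels name no settings, annotation release or filter. Because FPKM scales by the library total, a few abundant loci can shift the rest.

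Differences were log2 of (Atclb1-1 FPKM + 1) over (wild type FPKM + 1). A locus was kept once either library reached 1 FPKM, and the threshold was 2-fold. The calculation was checked on simulated data. The members, lists and thresholds were chosen with earlier results of these data known. Values were given for every kept member, AtCLB and the 4 genes of a list that differed most. Others named, such as RBOHD, BAK1, WRKY29, PR5, GSH1, KAT1, AT1G51820, AT4G11900, AT4G23215 and AT4G23330, were chosen after their values were seen. Names, coordinates, coding models and sequences came from TAIR10.1 (RefSeq), which matched all 41 members. The nuclear coordinates printed are of that build, and the deposited table holds none. Coding identity was the share of equal bases in aligned columns of global pairwise alignments (Biopython 1.88). Fragment numbers are estimates that rest on the commonest step among low values, 0.055 to 0.06 in Atclb1-1 and 0.065 to 0.07 in wild type for 1 fragment on 1 kb. Python 3.11.15, numpy 2.4.6, pandas 2.3.3 and matplotlib 3.10.9 were used.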

Additional observations from a re-analysis of the deposited data

How the results depend on the processing

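The count of 17 members at least 2-fold higher was 10 with a pseudocount of 5, 5 at a 4-fold threshold and 6 without the large array, and 13 to 21 under the other settings; 0 members were lower under any setting. With the median ratio at 0, and with the length and GC trend removed, 13 passed, all among the 17, and CRK2, CRK4, CRK20 and ARCK1 did not. The family's median of 0.98 crossed the 2-fold line at 1.17 with a pseudocount of 0.1, 1.06 with the same nuclear total, 1.04 with a filter at 5 FPKM, 1.04 without overlapping members, 1.05 without members sharing segments (a setting chosen after seeing the data) and 1.03 as a mean; its lowest value was 0.64 with a pseudocount of 5.

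With a pseudocount of 5 the partner list had 1 gene higher and 1 lower, the WRKY list 0 lower, the other DUF26 list 1 lower, the neighbours 10 higher and 6 lower, and all loci 9.76% higher and 5.82% lower; the IOS1 median was 1.19. At a 4-fold threshold the partners had 1 higher and 0 lower, the WRKY list 2 and 0, the salicylic acid list 2 and 0, the other DUF26 list 1 lower, the WAK cluster 1 higher, the neighbours 7 and 1, and all loci 5.29% and 2.64%. With no filter all loci had 9.31% higher and 5.83% lower, the IOS1 median was 0.96 and the WAK median 0.52. With a filter at 5 FPKM the WRKY list had 0 lower, and the other DUF26 list had 1 lower and a median of 2.09. Removing the length and GC trend left 1 partner and 1 WAK gene higher, with a WAK median of 0.91. Setting the median ratio to 0 left 13 neighbours higher. The salicylic acid median was 1.05 with the same nuclear total and 1.00 with a pseudocount of 0.1. The causes were not tested.

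A planned setting based on protein identity was not run, since no protein table was used here. With no replicates, a value was taken to have moved at 1.5-fold or on crossing the 2-fold line. No paired analysis was possible because each genotype has 1 library. Ratios of members near 1 FPKM (CRK20, CRK26, CRK39) rest on roughly 3 to 6 fragments in wild type.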

Other observations

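A pseudogene inside the large array also differed between the libraries. AT4G23215 (TAIR10.1 chr4:12152900-12153459, minus strand), annotated as a transcribed pseudogene derived from a CRK and lying between CRK13 and CRK14, was at 68.4 FPKM in Atclb1-1 and 7.69 FPKM in wild type, an 8.89-fold ratio. It was chosen after its value was seen. Segments that it shares with CRK genes were not counted, and whether its reads came from it alone was not tested. Annotated CRK genes outside the 41 were near the limit of measurement, with AT1G19090 (CRK1) at 0.0251 FPKM and AT4G28670 at 0.0285 FPKM in Atclb1-1 and both listed at 0 in wild type.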
